A study of Homo sapiens with 2 samples.

Results

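The histone cluster genes are the rows of the gene count table whose name begins with HIST1H, HIST2H, HIST3H or HIST4H, and the name alone chose them. They were 89 of 37122 rows. They encode the linker histone H1 (8 rows), and the core histones H2A (23 rows), H2B (26 rows), H3 (16 rows) and H4 (16 rows), and 18 of the 89 rows are pseudogenes by their names or the annotation. The counts came from RNA sequencing of 2 cell cultures. Ramos is a human Burkitt's lymphoma (BL) line, that is, a cell line of a germinal-centre type B-cell tumour. Ramos640 cells were derived from it by treatment with escalating rituximab, an antibody against CD20, with 20% normal human serum as the source of complement. They were kept resistant by the same treatment every 21 days, at a concentration that the label gives as 640 mg/mL and the study's methods give in micrograms. Both cultures were grown in the same medium with 10% fetal bovine serum, and the comparison asks how the resistant cells differ from the original cells. Total RNA of 3 passages was pooled into 1 library per line, so there were no replicates, no test of the 2 conditions could be made, and every interval below covers counting error of these 2 libraries only. No selection of a clone was described.

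Replication-dependent histone genes supply the nucleosomes that package newly copied DNA. A nucleosome is an octamer of H2A, H2B, H3 and H4 with DNA wound around it, and H1 binds the linker DNA where it enters and leaves the octamer. These genes sit in clusters, mostly lack introns, and are switched on as cells enter S phase. Their mRNAs are the known exception among animal mRNAs in that they end in a short stem-loop and not in a poly(A) tail. The stem-loop-binding protein SLBP holds that stem-loop, and the U7 snRNP cuts the transcript behind it. How much of this RNA a library holds therefore depends on the share of cells in S phase, on 3′-end processing and on whether the library was made from poly(A) RNA. The kit used here was for total RNA, and whether RNA was selected by poly(A) tail or depleted of ribosomal RNA was not given in the sources used here.

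The stem-loop was searched for in the genome (GRCh37) within 150 bases after the stop codon of the 68 members with an annotated coding sequence that are not pseudogenes. The search required a stem of 6 base pairs that starts with GG and a loop of 4 bases that starts with T. It was found in 66 members, 22 to 67 bases after the stop codon, with a median of 35 bases. HIST1H2AG and HIST1H2AK had no match to these letters. The 66 matches had 8 forms, and the form shared by 40 members was that of all 4 expressed H1 genes. The sequences below belong to members that the results turn on. Each is written 5′ to 3′ on the gene's own strand, with the stem-loop in capitals and 5 flanking bases on each side. They lie in the 3′ untranslated region, except that the last base of HIST1H1C is past the annotated end of the transcript.
HIST1H1E (chr6:26157318-26157343, plus strand): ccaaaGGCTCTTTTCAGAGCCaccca
HIST1H1B (chr6:27834570-27834595, minus strand): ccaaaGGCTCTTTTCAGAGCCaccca
HIST1H1D (chr6:26234440-26234465, minus strand): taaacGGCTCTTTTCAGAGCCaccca
HIST1H1C (chr6:26055967-26055992, minus strand): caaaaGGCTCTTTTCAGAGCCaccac
HIST1H3H (chr6:27778289-27778314, plus strand): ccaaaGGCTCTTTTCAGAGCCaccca
HIST2H2AC (chr1:149858936-149858961, plus strand): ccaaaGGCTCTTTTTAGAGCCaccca
HIST1H2BK (chr6:27114140-27114165, minus strand): ccaaaGGCTCTTTTAAGAGCCactta
HIST1H4C (chr6:26104540-26104565, plus strand): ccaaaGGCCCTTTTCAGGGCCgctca
HIST2H4A (chr1:149804591-149804616, plus strand): ccaaaGGCCCTTTTTAGGGCCgacca
The H1 genes and HIST1H3H carried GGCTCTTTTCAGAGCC. The H4 genes differed from these in the middle of the stem, and 9 of them, HIST1H4C included, carried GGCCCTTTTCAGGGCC. HIST1H2BK carried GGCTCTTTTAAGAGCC, which 9 members had. HIST2H2AC was alone with its form. Members with the same form were found both among those higher and among those near no change in Ramos640 cells, as with HIST1H3H and HIST2H3A.

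The libraries held 38030090 reads for Ramos cells and 30871826 reads for Ramos640 cells. Histone cluster genes took 18206 and 19126 of them, or 479 (95% interval 472 to 486) and 620 (611 to 628) CPM, that is, the count as a share of the library's total on a common scale. This is 0.0479% and 0.062% of all reads. Of the members, 16 had no read in either library, which allows up to 0.0789 CPM in Ramos cells and 0.0972 CPM in Ramos640 cells (3 reads of each total). Another 10 members had 1 to 9 reads in both libraries together. The remaining 63 had at least 10 reads, 46 of them at least 100. A log2 fold change is that of Ramos640 over Ramos cells after scaling by median-of-ratios size factors, with 1 added to each scaled count, and a gene is counted as higher or lower in Ramos640 cells where it is past 1.5-fold.

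Histone cluster transcripts were more abundant in Ramos640 than in Ramos cells, and the H1 class was the one farthest above. Of 63 members past the minimum, 27 counted as higher, 4 as lower and 32 lay within 1.5-fold. Over all 18778 genes past the same minimum, 14.6% counted as higher and 17.3% as lower. The median log2 fold change of the members was 0.47 (quartiles 0.10 to 0.77), against -0.015 for all genes. Of the 63 values, 50 were above 0. The 95% counting interval lay above 0 for 34 members and below 0 for 6, where the shares over all genes were 29.6% and 31.6%. Summed over all members, the log2 ratio was 0.45 (0.42 to 0.48). With library totals in place of size factors, 19 members were higher and 4 lower, and all genes were then 12.5% higher and 20.4% lower. GC content moved with the result. The members past the minimum had a median GC content of 58.6%, against 47.8% for all genes, and the running median of all genes at the members' GC contents lay between 0.047 and 0.27. With the trend over GC content taken out, the members' median was 0.27 and that of H1 was 1.58, and 15 members were higher and 5 lower of the 59 with a GC value, 26 of which were higher before. All genes with a GC value were then 12% higher and 15.4% lower. Where a gene has fewer reads in 1 culture, fewer cells in S phase and less RNA per cell cannot be told apart.

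**Figure D1:**
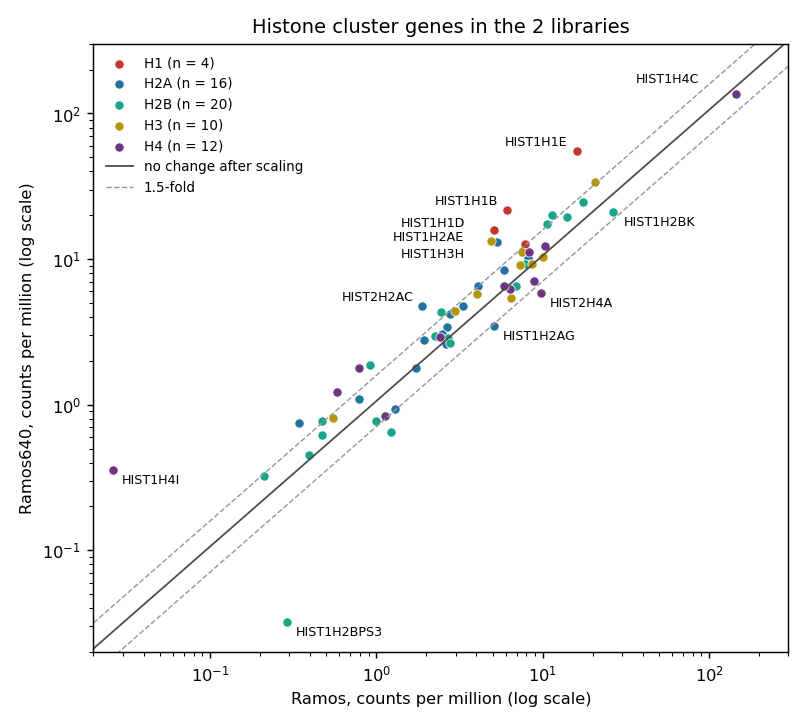
Level in CPM of each histone cluster gene with at least 10 reads in Ramos (x axis) and Ramos640 cells (y axis), both on log scales, coloured by histone class. HIST1H4L, with 0 reads in Ramos640 cells, cannot be drawn. The solid line is no change after scaling and the dashed lines are 1.5-fold. The H1 genes lie above the upper dashed line, while HIST1H4C, the most-read gene, lies on the solid line.

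The linker histone H1 was higher as a class. Its reads went from 1337 in Ramos to 3252 in Ramos640 cells, that is from 35.2 to 105 CPM, with a log2 ratio of 1.66 (1.57 to 1.76) or 3.17-fold. All 4 H1 genes with reads past the minimum were higher. HIST1H1E, which encodes H1.4 (chr6:26156557-26157343 on the plus strand, GRCh37), had 609 reads in Ramos and 1701 in Ramos640 cells, or 16 and 55.1 CPM. Its log2 fold change was 1.86 (1.73 to 2.0). HIST1H1B, which encodes H1.5, had 233 and 670 reads, with a log2 fold change of 1.90 (1.69 to 2.13). HIST1H1D, which encodes H1.3, had 195 and 487 reads, with a log2 fold change of 1.70 (1.46 to 1.95). These intervals overlap one another. HIST1H1C, which encodes H1.2, stood apart with 296 and 393 reads and a log2 fold change of 0.79 (0.57 to 1.01), and its interval does not meet those of the other three. Its share of the H1 reads went from 22.1% (19.9 to 24.5) to 12.1% (11.0 to 13.3), and that of HIST1H1E from 45.5% (42.9 to 48.3) to 52.3% (50.6 to 54.0). HIST1H1A and the testis gene HIST1H1T had no read in either library. None of the 4 expressed H1 genes shares a stretch of 100 bases with another member. HIST1H1E and HIST1H1D overlap long non-coding gene models that the annotation leaves unnamed, and whether the counting used strand was not given in the sources used here.

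As a share of all histone cluster reads, H1 went from 7.34% (6.97 to 7.73) to 17% (16.5 to 17.5). H4 went the other way, from 42.0% (41.3 to 42.8) to 31.1% (30.5 to 31.8). H2A, H2B and H3 shifted less, from 10.5% to 11.6%, from 24.8% to 23.6% and from 15.3% to 16.7%. There were 12.6 core histone reads for each H1 read in Ramos cells and 4.88 in Ramos640 cells. These shares are within a library, so the scaling between the libraries does not touch them.

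**Figure D2:**
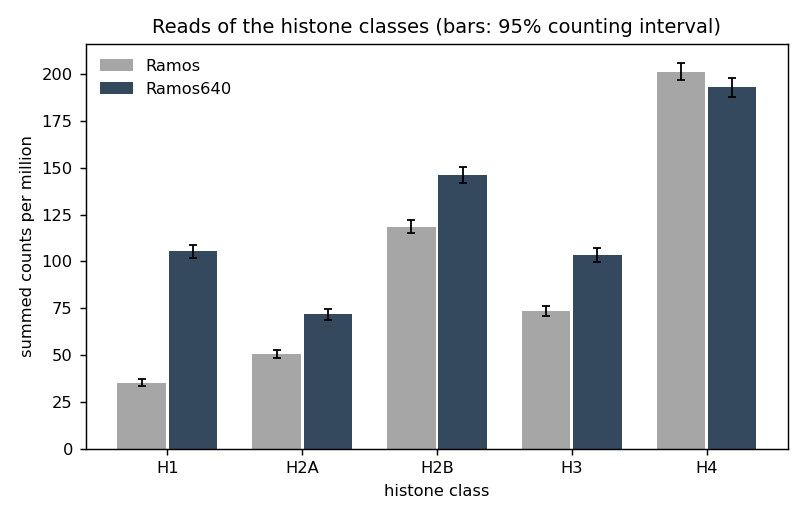
Summed level in CPM of the 5 histone classes in Ramos (grey) and Ramos640 cells (dark), with 95% counting intervals as error bars. H1 goes from 35.2 to 105 CPM, while H4 stays near 200 CPM in both libraries (201 and 193).

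Promoters of the H1 genes share AAACACA, the H1 box, which few core histone promoters held. Since the expressed H1 genes were higher together, their upstream sequences are shown. RefSeq promoter windows (GRCh38.p14, 250 bases before to 50 after each gene's start) were matched for 62 members. HIST1H4C, HIST1H2BK and HIST1H2BD, the most-read H4 and H2B genes, were not among them, nor were HIST1H3D, HIST1H3I and HIST1H3J. The sequences below are the 250 bases before the start of the 4 expressed H1 genes, 5′ to 3′ on the gene's strand. Capitals mark matches to CCAAT (bound by NF-Y) and AAACACA (the H1 box) on either strand, and to TATAAA (the TATA box) on the gene's strand.
HIST1H1E (chr6:26156079-26156328, plus strand): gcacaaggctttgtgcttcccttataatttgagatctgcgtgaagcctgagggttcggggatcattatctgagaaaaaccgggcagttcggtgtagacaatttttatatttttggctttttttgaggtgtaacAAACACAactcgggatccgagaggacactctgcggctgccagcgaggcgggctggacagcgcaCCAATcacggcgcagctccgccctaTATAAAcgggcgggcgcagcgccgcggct
HIST1H1B (chr6:27867589-27867838, minus strand): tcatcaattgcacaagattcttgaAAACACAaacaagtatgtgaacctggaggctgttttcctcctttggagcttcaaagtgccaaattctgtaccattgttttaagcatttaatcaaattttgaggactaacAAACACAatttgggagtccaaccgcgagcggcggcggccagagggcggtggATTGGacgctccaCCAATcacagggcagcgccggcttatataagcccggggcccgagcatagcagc
HIST1H1D (chr6:26234988-26235237, minus strand): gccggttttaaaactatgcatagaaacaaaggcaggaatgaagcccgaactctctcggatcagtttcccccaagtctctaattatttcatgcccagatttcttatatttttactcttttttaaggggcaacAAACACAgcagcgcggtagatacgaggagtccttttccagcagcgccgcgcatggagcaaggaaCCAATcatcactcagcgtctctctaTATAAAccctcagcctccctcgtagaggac
HIST1H1C (chr6:26056471-26056720, minus strand): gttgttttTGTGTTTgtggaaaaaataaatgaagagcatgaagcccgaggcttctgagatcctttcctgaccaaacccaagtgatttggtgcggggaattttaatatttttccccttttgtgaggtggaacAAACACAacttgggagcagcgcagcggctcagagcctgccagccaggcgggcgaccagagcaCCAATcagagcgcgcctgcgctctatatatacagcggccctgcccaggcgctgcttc
AAACACA lay 117 bases before the start of HIST1H1E and HIST1H1B and 119 bases before the start of HIST1H1C and HIST1H1D. CCAAT lay 53 to 57 bases before the start of the 4 genes. HIST1H1B and HIST1H1C each had a further AAACACA match, 226 and 242 bases before the start, the latter on the opposite strand. TATAAA was found in HIST1H1E and HIST1H1D but not in HIST1H1B or HIST1H1C. AAACACA occurred in the windows of all 6 H1 genes matched, the unread HIST1H1A and HIST1H1T included, and in 5.64% of all 35116 promoters. In HIST1H1A the match lay 183 bases before the start, on the opposite strand. Of the core classes, 1 of 16 H2A and 2 of 11 H3 windows held AAACACA, and no H2B or H4 window did.

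The core classes differed from one another in their elements. CCAAT was present in all matched promoters of H1, H2A, H2B and H3 and in 3 of 13 of H4, against 34.6% of all promoters. The octamer ATTTGCAT, the site of OCT1 and OCT2, was found on either strand in 11 of 16 H2A and 13 of 16 H2B promoters and in none of the other classes, against 1.77% of all promoters. GGTCCG, which is part of the H4 element bound by HINFP, was found in 12 of 13 H4 promoters and in 11.3% of all promoters. TATAAA was found in 59.7% of members and 7.33% of all promoters. In some promoters GGTCCG overlaps CCAAT on the opposite strand. These matches are a description of the letters and not of binding.

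Core histone genes were above Ramos levels by less than H1 and not evenly. Together their reads went from 16869 to 15874, which is a log2 ratio of 0.29 (0.26 to 0.32) after scaling. Among the 59 past the minimum of 10 reads, 23 counted as higher and 4 as lower, with a median log2 fold change of 0.42. Of these genes, 11 had a larger fold change than HIST1H1C. The largest among those with at least 100 reads was 1.52 (1.27 to 1.78), in HIST1H3H. This value is below those of HIST1H1B, HIST1H1D and HIST1H1E, but its interval overlaps the intervals of all of them.

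H3, the histone whose tail carries most of the studied marks, had 6 of 10 genes higher and none lower, with a median of 0.60 and a summed log2 ratio of 0.58 (0.50 to 0.65). HIST1H3H had 185 and 409 reads (4.86 and 13.2 CPM), with a log2 fold change of 1.52 (1.27 to 1.78). HIST1H3B, the most-read H3 gene, had 790 and 1042 reads (20.8 and 33.8 CPM), with a log2 fold change of 0.78 (0.65 to 0.92). HIST1H3H was thus farther above its Ramos level than the leading gene of the class, with intervals that do not meet. HIST1H3D, HIST2H3D, HIST1H3J and the less-read HIST1H3A lay between 0.60 and 0.64. These 4 genes were within 1.5-fold with library totals, under which 2 of the 10 H3 genes were higher, and the interval of HIST1H3A includes 0. HIST1H3I, at 0.40, was within 1.5-fold. HIST2H3A and HIST2H3C, copies that share 100% and 99.1% of their windows of 100 bases, had 711 reads together in Ramos and 605 in Ramos640 cells, for a log2 ratio of 0.15 (-0.01 to 0.31). The pseudogene HIST1H3PS1 had 244 and 167 reads, with a log2 fold change of -0.17 (-0.46 to 0.12).

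H2A, which pairs with H2B on the outside of the octamer, had 8 of 16 genes higher and none lower, with a median of 0.57 and a summed log2 ratio of 0.59 (0.50 to 0.68). With library totals 5 were higher. HIST2H2AC had 72 and 146 reads (1.89 and 4.73 CPM), for 1.39 (0.98 to 1.83). HIST1H2AE had 203 and 402 reads (5.34 and 13.0 CPM), for 1.36 (1.12 to 1.62). Both stood above the rest of the class, whose members with at least 100 reads reached 0.75 in HIST1H2AJ, although the little-read HIST3H2A (13 and 23 reads) was at 1.14. HIST1H2AG had 193 and 108 reads (5.07 and 3.50 CPM), for -0.45 (-0.81 to -0.11), the lowest in the class. HIST1H2AI and HIST1H2AJ share 58.8% and 61.8% of their windows and had 467 and 515 reads together, for 0.52 (0.34 to 0.71). HIST2H2AA3 and HIST2H2AA4, a duplicated pair, had 231 and 277 reads together, for 0.64 (0.39 to 0.90). In such pairs the split of reads between the copies depends on how reads with several positions were counted, which was not given in the sources used here.

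H2B had 6 of 20 genes higher and 2 lower, with a median of 0.38 and a summed log2 ratio of 0.38 (0.32 to 0.44). HIST1H2BK, the most-read H2B gene of Ramos cells, had 1009 and 651 reads (26.5 and 21.1 CPM), for -0.25 (-0.40 to -0.11). It was thus below its Ramos level while most of its class was above. HIST1H2BD had 666 and 757 reads (17.5 and 24.5 CPM), for 0.57 (0.41 to 0.72), and was then the most-read H2B gene of Ramos640 cells. HIST1H2BF had 432 and 616 reads, for 0.89 (0.71 to 1.07), and HIST1H2BC had 406 and 541, for 0.79 (0.61 to 0.98). The most-read H2B genes thus ran from below to well above their Ramos levels. HIST2H2BF, at 0.90, and the less-read HIST3H2BB, at 1.09, were also higher. The pseudogene HIST3H2BA (18 and 24 reads) and HIST1H2BE (8 and 10 reads) counted as higher too, with intervals that include 0. HIST1H2BJ, HIST1H2BN and HIST2H2BE, between -0.01 and 0.15, had intervals that include 0. Both H2B rows counted as lower were pseudogenes, HIST2H2BC with 47 and 20 reads and HIST1H2BPS3 with 11 and 1. HIST2H2BC shares most of its windows with HIST2H2BD, also a pseudogene, and the pair together had 85 and 44 reads, for -0.57 (-1.13 to -0.03).

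H4, one of the most conserved histones, was the class with the most reads, and its sum was close to no change. Ramos cells held 7653 H4 reads and Ramos640 cells 5954, or 201 and 193 CPM, for a log2 ratio of 0.019 (-0.030 to 0.068), which was -0.061 with library totals. HIST1H4C held most of these reads, with 5560 and 4216, or 146 and 137 CPM, and without it the sum was at 0.11. Its log2 fold change was -0.018 (-0.076 to 0.040), and it held 30.5% of all histone cluster reads in Ramos and 22.0% in Ramos640 cells. Per length it stood at 361 RPKM, that is CPM per kilobase of transcript, in Ramos and 337 in Ramos640 cells, where HIST1H1E stood at 20.3 and 70.0 RPKM. HIST1H4C overlaps the annotated model of HIST1H2BC on the opposite strand, so without strand their reads cannot be told apart there. The other H4 genes were not all at that value. HIST1H4B had 317 and 346 reads, for 0.51 (0.28 to 0.73), and HIST1H4H had 395 and 377, for 0.31 (0.11 to 0.52). Both intervals lie above that of HIST1H4C. HIST1H4E, HIST1H4A and HIST4H4 had intervals that include 0, at 0.05, 0.35 and -0.24.

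The H4 genes counted as higher all had few reads. HIST1H4J had 30 and 55 reads, for 1.22 (0.59 to 1.95), and HIST1H4K had 22 and 38, for 1.13 (0.38 to 2.0), but these genes share 90.7% and 91.3% of their windows. HIST1H4I had 1 and 11 reads, for 2.85 (1.06 to 9.27). HIST1H4L was at 14 reads in Ramos and 0 in Ramos640 cells, which is 3.58-fold lower when the empty library is set to 3 reads. The upper end of its counting interval was a log2 fold change of -1.35, which is a smaller change than that. The genes counted as lower were HIST1H4L and HIST2H4A. The latter had 371 and 181 reads, for -0.65 (-0.92 to -0.39), while HIST2H4B had 222 and 203, for 0.25 (-0.03 to 0.53). All of their windows of 100 bases are shared, so the reads of the copies cannot be assigned to one or the other by sequence, and together they had 593 and 384 reads, for -0.25 (-0.43 to -0.06).

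**Figure D3:**
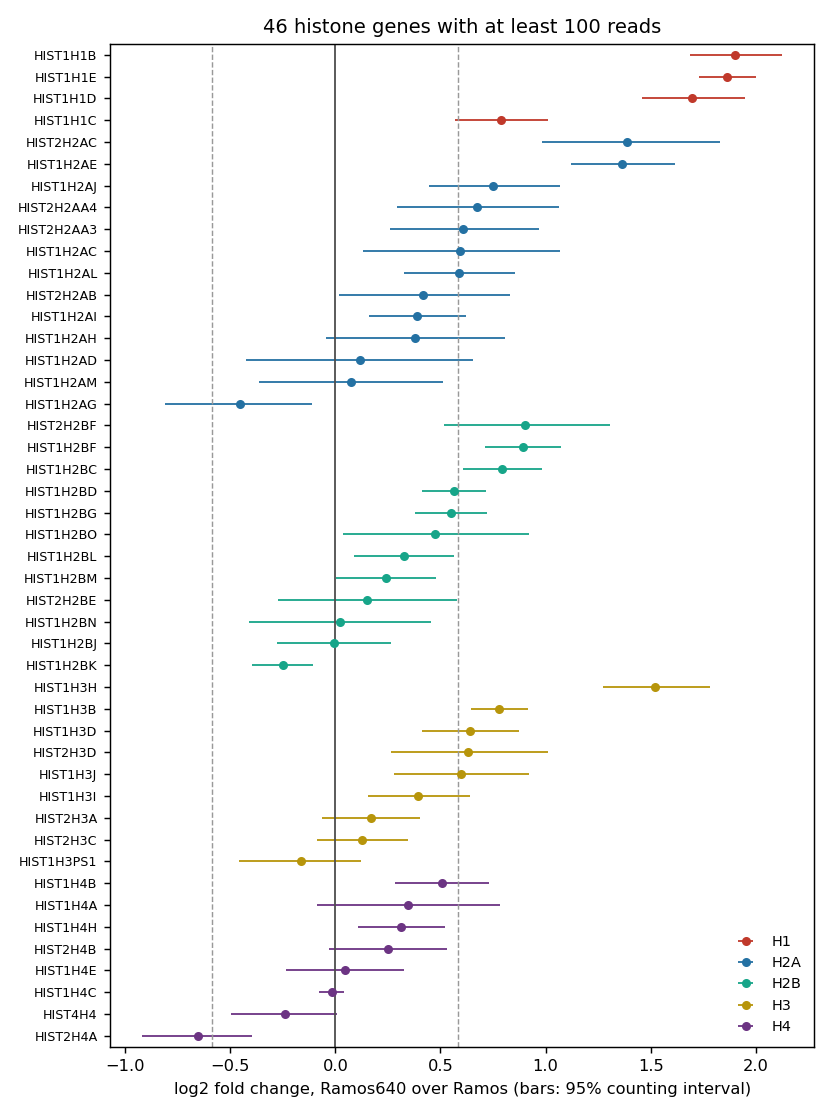
Log2 fold change, Ramos640 over Ramos (x axis), for the 46 histone cluster genes with at least 100 reads in both libraries together, ordered within each class. Points are the 1 value per gene, bars are 95% counting intervals, and dashed lines mark 1.5-fold. HIST1H1B, HIST1H1E and HIST1H1D are the top values, between 1.70 and 1.90, and HIST2H4A at -0.65 is the lowest.

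Some replication-dependent histone genes are also known to give polyadenylated transcripts. A list of 6 such members held HIST1H1C, HIST1H2AC, HIST1H2BC, HIST1H2BD, HIST1H2BK and HIST2H2BE. Of these, 3 were higher and none lower, with a median of 0.58. They had 2554 reads in Ramos against 2516 in Ramos640 cells, for a summed log2 ratio of 0.36 (0.28 to 0.44). HIST1H1C (0.79) and HIST1H2BK (-0.25), which lay below the rest of H1 and most of H2B, are thus on this list. HIST1H2BC, also on it, was higher at 0.79. The part of polyadenylated transcripts in these values was not tested. The other 57 members with at least 10 reads had 24 higher, 4 lower and a median of 0.44, with a summed log2 ratio of 0.47 (0.44 to 0.50). Members known from testis, HIST1H1T, HIST1H2AA, HIST1H2BA and HIST3H3, had no reads in either library.

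The clusters lie in 4 places. The annotated HIST1 genes on chromosome 6 span chr6:25723625-27861669 in GRCh37. Of the 44 members named HIST1 past the minimum, 19 were higher and 2 lower, with a median of 0.53. Among these, the lower pseudogene HIST1H2BPS3 is annotated on chromosome 13, and HIST1H2BF and HIST1H2BG were not matched to a position. The annotated HIST2 genes span chr1:149389123-149859515, and of the 15 so named 5 were higher and 2 lower, with a median of 0.26, HIST2H2BA and HIST2H2BB having no matched position. HIST3 genes, at chr1:228612546-228652295, were few and little read (66 and 105 reads together), with a summed log2 ratio of 1.05 (0.59 to 1.52). Their 3 rows with at least 10 reads all counted as higher, against 14.6% of all genes. Among the 3 is the pseudogene HIST3H2BA, with 18 and 24 reads and an interval that includes 0 (-0.15 to 1.76). HIST4H4 on chromosome 12 is the only gene of its locus, with 339 and 220 reads.

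Within the HIST1 locus the genes form 3 groups separated by gaps of over 200 kb, and the middle one lay below the others. The first group, from HIST1H2AA to HIST1H3PS1, had 10 of 20 annotated genes higher, none lower and a median of 0.58. The middle group (chr6:27093676-27115341) holds HIST1H2BJ, HIST1H2AG, HIST1H4I, HIST1H2BK and HIST1H2AH. Its reads went from 1562 to 1067, for a summed log2 ratio of -0.17 (-0.28 to -0.06), and its median was -0.005. HIST1H2BK alone held 1009 and 651 of these reads, so the sum rests largely on that gene. HIST1H2AH was at 0.38, and HIST1H4I with its 12 reads was the 1 gene counted as higher. The last group, from HIST1H4PS1 to HIST1H2BO, had 7 of 16 higher, 1 lower and a median of 0.43, with a summed log2 ratio of 0.73 (0.65 to 0.80). HIST1H1E and HIST1H1D are in the first group and HIST1H1B is in the last one, so the highest H1 genes were not neighbours.

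**Figure D4:**
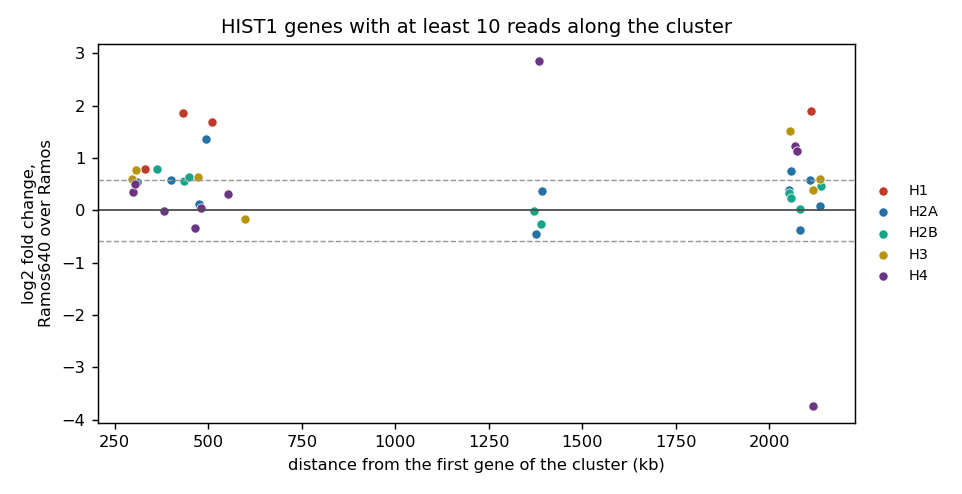
Log2 fold change, Ramos640 over Ramos (y axis), for HIST1 genes with at least 10 reads, against the distance of each gene's start from that of the first gene of the locus in kb (x axis). Colours are histone classes and dashed lines mark 1.5-fold. HIST1H1 genes near 433 and 511 kb and near 2111 kb are the high red points, and 4 of the 5 genes of the middle group lie within 1.5-fold.

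Many H2A and H2B genes are arranged head to head and share the DNA between their starts. Starts within 1000 bases of each other were found for 12 pairs of members on opposite strands, 10 of them with both genes past the minimum. In 8 of these 10 pairs both genes had the same sign, where 50 of all 63 members past the minimum were above 0. The 8 pairs include HIST1H2BO both with HIST1H2AM and with the H3 gene HIST1H3J. HIST1H2BF and HIST1H2BG had no matched position, so they could not be paired. HIST3H2A and HIST3H2BB were alike, at 1.14 and 1.09. HIST1H2BK and HIST1H2AH had opposite signs, at -0.25 and 0.38, but the interval of HIST1H2AH includes 0 (-0.04 to 0.81). HIST2H2BE and HIST2H2AC differed most, by 1.23 on the log2 scale. HIST2H2BE had 103 and 88 reads, for 0.15 (-0.27 to 0.58), and this interval does not meet that of HIST2H2AC. Their starts are 236 bases apart, so the sequence below holds all of the DNA between them. It is written 5′ to 3′ on the strand of HIST2H2AC, with matches to all the motifs named so far in capitals.
HIST2H2AC (chr1:149886668-149886917, plus strand): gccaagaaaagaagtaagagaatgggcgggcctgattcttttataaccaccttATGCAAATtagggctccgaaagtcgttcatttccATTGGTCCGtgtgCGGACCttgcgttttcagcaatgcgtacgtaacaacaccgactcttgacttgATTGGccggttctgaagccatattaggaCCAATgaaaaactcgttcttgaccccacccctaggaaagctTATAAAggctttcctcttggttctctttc
This stretch holds CCAAT letters at 3 places, an octamer at 197 bases and TATAAA at 29 bases before the start of HIST2H2AC. The GGTCCG letters, otherwise found mainly in H4 promoters, occur here as well. HIST2H2AC was also the only H2A gene with AAACACA in its window, at 35 bases after the start and on the opposite strand. The same letters lay at a like place in the windows of HIST2H3A and HIST2H3C, whose log2 fold changes were 0.17 and 0.13.

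Replication-independent histone variants, most of which are also made outside S phase and from polyadenylated mRNAs, did not share the higher level. Of 21 on the list, 12 had at least 10 reads. None was higher and 3 were lower, with a median of -0.31 and a summed log2 ratio of -0.24 (-0.25 to -0.22). Over all genes 14.6% were higher and 17.3% lower. H3F3A, a gene of the replacement histone H3.3, had 7553 and 2557 reads (199 and 82.8 CPM), for a log2 fold change of -1.18. H1FX, a replication-independent linker histone, had 2747 and 975 reads (72.2 and 31.6 CPM), for -1.11, which is opposite to the H1 genes of the clusters. The row named as its antisense gene, H1FX-AS1, had 213 and 44 reads, for -1.87. Whether the counting used strand was not given in the sources used here. H2AFJ, the third lower variant, had 35 and 8 reads. H1F0, a linker histone of resting cells, had 115 and 70 reads, for -0.33, with an interval that includes 0 (-0.79 to 0.11). H3F3B, which encodes the same H3.3 protein as H3F3A, was within 1.5-fold at -0.49, as were H2AFX at -0.28, H2AFZ at -0.08, and the centromeric variant CENPA at -0.16. H2AFY, the gene of macroH2A, was the 1 variant above 0, with 11011 and 9298 reads, for 0.14 (0.10 to 0.18). Reads of H3F3A may be split with pseudogenes, of which H3F3AP4 had 9822 and 4104 reads and H3F3AP6 had 5340 and 2984, and both were also below 0.

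Factors that make, cut and carry histone mRNA and protein mostly lay within 1.5-fold. Of 31 genes for histone mRNA 3′ ends and decay, 1 was higher (CPSF1, a cleavage factor subunit, at 0.62) and 1 lower (LSM10, a protein of the U7 snRNP, at -0.70), with a median of -0.020. With library totals none was higher and 3 were lower. SLBP had 11267 and 6437 reads (296 and 209 CPM), for -0.43. ERI1, the exonuclease that trims the stem-loop end, was at -0.51, LSM11 at -0.11 and ZNF473, which also belongs to the U7 machinery, at 0.24. Of 19 genes for histone gene transcription, POU2F2, which encodes the B-cell octamer factor OCT2, was higher at 0.92, and CCNE2 (cyclin E2) at -0.85 and NFYB (an NF-Y subunit) at -0.69 were lower. NPAT, the coactivator that cyclin E and CDK2 act on at histone loci, was at -0.12, HINFP at 0.15, and CASP8AP2, a protein of the histone locus body, at -0.49. Of 31 chaperone genes, 1 was higher and none lower. That gene was IPO4, an importin that carries H3 and H4 into the nucleus, at 1.19, whereas NASP, which holds H1 and H3, was at 0.30.

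Genes of S phase and of G2 and M phase were not above Ramos levels. Of 37 S phase genes, GINS3 was higher at 0.66, CCNE2, RFC4 and TK1 were lower, and the median was -0.19. Of 21 G2 and M phase genes, UBE2C was higher at 0.59, none was lower, and the median was -0.24. With library totals GINS3 and UBE2C were within 1.5-fold, UBE2C also with TMM factors, and 5 S phase genes were lower. Both medians are below that of all genes, while the histone cluster median was above it. RNA-seq of unsorted cultures does not give the share of cells in each phase.

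**Figure D5:**
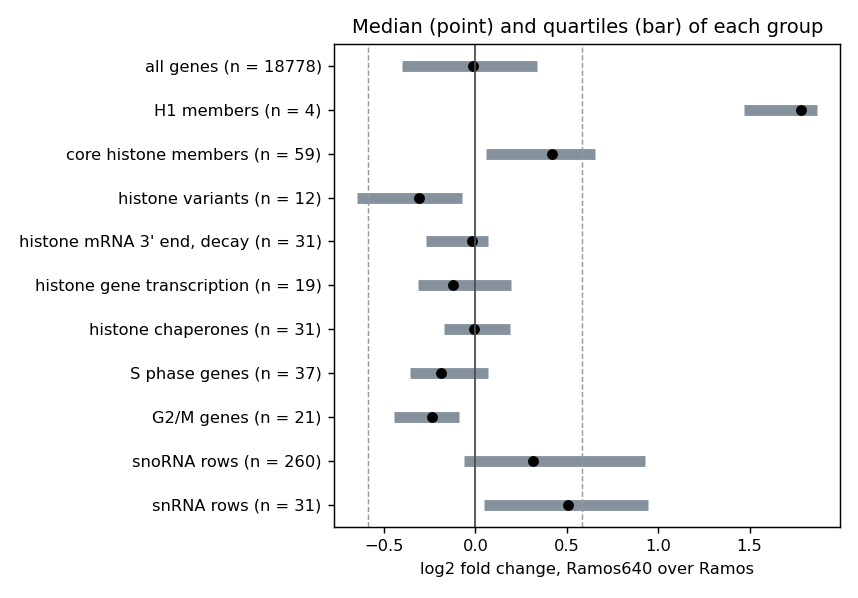
Median (point) and quartiles (bar) of the log2 fold changes in each group of genes with at least 10 reads, with the number of genes in brackets and dashed lines at 1.5-fold. H1 members at 1.78 and core histone members at 0.42 lie above all genes, S phase genes at -0.19 lie below, and snoRNA and snRNA rows at 0.32 and 0.51 lie above.

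Other RNAs that lack a poly(A) tail were also above Ramos levels. The table held 260 small nucleolar RNA rows past the minimum, of which 98 counted as higher and 25 as lower, with a median of 0.32. Of 22 small Cajal body RNA rows, 10 were higher and 3 lower, with a median of 0.44, and of 31 small nuclear RNA rows, pseudogene copies among them, 14 were higher and 3 lower, with a median of 0.51. Over all genes 14.6% counted as higher and 17.3% as lower. Together these rows went from 196776 to 185202 reads, for a summed log2 ratio of 0.29 (0.28 to 0.30). Small nucleolar RNA rows held 189990 and 177503 of these reads, and the small nuclear RNA rows alone were at 0.66. The summed log2 ratio was also 0.29 for the core histone genes, but 1.66 for H1 and 0.45 for all histone members. RN7SL1 and RN7SL2, the RNA of the signal recognition particle, were at 1.19 and 1.58, while RN7SK was at 0.03 and TERC at -0.62. The part of a difference in RNA selection or library making in the histone result was not tested.

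Among the cell type markers listed, those of B cells had the most reads in both libraries, and fibroblast markers were read as well. All 6 B-cell markers were expressed, of which CD79B was higher (69495 and 82890 reads) and PAX5 lower (4624 and 2039 reads). All 4 germinal-centre markers were expressed too, with MME and MYBL1 lower at -0.92 and -0.63 and a summed log2 ratio of -0.50 (-0.52 to -0.47). The part of the B-cell and germinal-centre markers in the histone result was not tested. T-cell markers summed to 49 and 46 reads with CD3D and CD2 at 0 and CD3E at 1 and 31, natural killer cell markers to 14 and 13, monocyte markers to 20 and 17, and epithelial markers to 43 and 16. The 4 fibroblast markers COL1A1, COL1A2, COL3A1 and DCN summed to 1296 reads in Ramos and 395 in Ramos640 cells (34.1 and 12.8 CPM). All 4 were lower. The part of these markers was not tested either.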

How the data were processed

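The authors extracted total RNA, pooled it from 3 passages of each line, and made 1 cDNA library per line with an Ion Total RNA-seq kit. After removal of adaptor sequences, the authors aligned the reads to GRCh37 with MapSplice v2.1.6, and they deposited a table of whole-number read counts per gene. The counting program, annotation, use of strand and treatment of reads with several positions were not given in the sources used here. With 1 library per line no dispersion can be estimated, so no test was run and values describe these 2 libraries. Counts were scaled by median-of-ratios size factors (1.14 for Ramos and 0.876 for Ramos640), and log2 fold changes used a pseudocount of 1. Intervals are exact (Clopper-Pearson, 95%) and cover counting error only, since there was 1 library per line. No molecular identifiers were described, so duplicate reads could make these intervals too narrow. Genes needed 10 reads in both libraries together, and higher or lower means past 1.5-fold, the study's fold criterion. The scripts were tested on simulated data. Alternatives were TMM factors (edgeR 4.0.16 in R 4.3.3), library totals, other pseudocounts, minimums and thresholds, removal of the GC trend, and sets of members left out.

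The member rows were taken by name alone, but this set of genes and the gene lists were chosen with earlier results of these data known. Genes named were members with at least 100 reads, the 5 most-read, the 5 with the largest change in each direction, members that also give polyadenylated transcripts, duplicates, testis members, and genes of the other lists past 1.5-fold or central to them. Others, among them ERI1, NASP, H3F3AP4, H3F3AP6 and the noncoding RNAs, were chosen after their values were seen. Coordinates and transcript sequences came from GENCODE 44 on GRCh37, in which 84 of the 89 members were matched (not HIST1H4F, HIST1H2BF, HIST1H2BG, HIST2H2BA or HIST2H2BB), and promoters came from RefSeq on GRCh38.p14. A shared window is a run of 100 transcript bases that also occurs in another member. The GC trend was a running median over 501 genes ordered by GC content, and 59 of the 63 members with at least 10 reads had a GC value.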

Additional observations from a re-analysis of the deposited data

How the results depend on the processing

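No paired analysis was possible because there was 1 library per cell line, and for the same reason no replicate could be left out. The direction of the members' median and of the H1, H2A, H2B and H3 sums was the same under every alternative run. The number of members higher, 27, was 11 at a threshold of 2-fold, 15 with the GC trend removed, and between 19 and 32 otherwise. The number lower, 4, was 8 with a minimum of 1 read, 1 with a minimum of 100 reads, 2 at 2-fold, and 1 without pseudogene and duplicated rows. The summed log2 ratio of 0.45 was 0.37 with library totals, 0.49 without pseudogene and duplicated rows, and 0.62 without HIST1H4C. With library totals the sums of H2B, H3 and H4 were 0.30, 0.50 and -0.061, and that of H4 thus changed sign. The counts of H2A and H3 genes higher were then 5 and 2 (from 8 and 6). The count with the GC trend removed was added after seeing the data, as were the following alternatives. They gave 0.29 for all members without H1, and without the most-read gene of each class 1.47 for H1, 0.52 for H2B, 0.49 for H3 and 0.11 for H4. The scaling shifts all genes alike, the median by -0.080 with library totals, and the other causes were not tested. Among the genes with at least 100 reads, removal of the GC trend moved 6 values beyond their counting interval, and library totals moved 1, HIST1H4C, to -0.098. HIST1H4L at its bound left the median of the members at 0.47. Low-read members such as HIST1H4I, HIST1H4L and HIST1H2BPS3 are limited by depth.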
